A study of Arabidopsis thaliana with 18 samples.

Results

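The response of Arabidopsis thaliana seedlings to the transcription factor PLETHORA7 (PLT7, also called AIL7) was read from 7 of the 18 arrays of a series on 5 PLT proteins, namely the 3 arrays labelled as dex induction of the PLT7 line and the 4 arrays labelled as mock. In each line the 35S promoter drives a PLT protein fused to the hormone-binding domain of the glucocorticoid receptor (GR), which holds the protein outside the nucleus until the steroid dexamethasone (dex) is added. The PLT7 group is the genotype 35S-PLT7-GR with 10 µM dex for 6 h. The mock group is the genotype 35S-PLT4-GR with the solvent DMSO for 6 h. Seedlings of both were 4 days old when moved, about 50 to a flask, into liquid medium, and were treated on the day after. Whole seedlings of a flask were pooled, so that RNA of root, hypocotyl and cotyledons was measured together.

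Line and treatment differ together in this comparison and cannot be told apart. The controls carry a 35S-driven PLT4 fusion without dex, the PLT7 line by its label carries no such fusion, and the effect of dex alone was not measured in any group. A 35S-driven protein also acts in cells that do not normally make it, and the labels do not say whether each line is 1 insertion event. The PLT4 line was also treated with dex, on 3 arrays, and the remaining dex groups were PLT1, PLT3 and PLT5. These groups had the same dose, time and age and are used only to show where PLT7 differed. The titles call the arrays of a group biological replicates, while the protocol describes 3 additional flasks for mock and the labels list 4 mock arrays.

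PLT proteins form the AINTEGUMENTA-like branch of the AP2-domain family. In the root they are graded from the stem cell niche upwards, where a high level keeps cells as stem cells, an intermediate level keeps them dividing and a low level lets them elongate and differentiate. PLT3, PLT5 and PLT7 are known together for the outgrowth of lateral root primordia and, in the shoot, for the spiral placement of leaves, partly through auxin synthesis genes of the YUCCA family.

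All values below are log2 values of probe sets, as the authors deposited them. A level is a log2 value of 1 array, and a change is a difference of mean log2 values with its standard error (SE). A level of about 3 to 4 lies near the background of these arrays, so that a change with 1 group at such levels may be understated, and levels of different genes are not compared. A gene is said to rise or fall, or is called, where limma's moderated test gave a Benjamini-Hochberg adjusted p under 0.05 over all 21429 probe sets. The number of arrays limits the precision. The 3 PLT7 arrays correlated at 0.997 with their group and the 4 mock arrays at 0.991 to 0.994. Of 6 pairs of control probe sets at the 3' and 5' ends of actin, ubiquitin and GAPDH transcripts, whose difference grows as RNA degrades, 4 overlapped between the groups. A ubiquitin pair differed by 0.313 to 0.34 in PLT7 and by 0.119 to 0.254 in mock, and a GAPDH pair by 1.333 to 1.528 and 1.175 to 1.265, and their part in the results was not tested. Of the leaf markers, PETE1, CA1 and PSBO1 were at means of 10.43, 12.43 and 13.03 in mock, and the root marker BGLU23 (PYK10) was at 13.38. The flower and pollen markers AP3, PI, AG, SEP2 and AGL104 had means of 3.28 to 3.56 in mock, near the background, and SEP3 was at 5.12.

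The PLT7 transcript itself stood at 10.91, 11.14 and 10.99 in the 3 PLT7 arrays and at 3.4, 3.55, 3.56 and 3.65 in the 4 mock arrays. The 15 arrays of all other groups lay between 3.4 and 3.81, so the signal was high in each array labelled PLT7 and in no other. The difference was 7.48 ± 0.09 (adjusted p = 2.47e-11). Endogenous family members moved less. ANT, which promotes organ growth, fell by 0.90 ± 0.14 (adjusted p = 0.000442), PLT5 fell by 0.49 ± 0.13 (adjusted p = 0.0107, and 0.0568 without PLT7 replicate 3) and PLT2 rose by 0.38 ± 0.10 (adjusted p = 0.00971). In fits of all 18 arrays and of 17 the change of PLT2 was the same 0.38, with an SE of 0.98 and 0.32 and an adjusted p of 0.807 and 0.377. The first holds the library labelled PLT1 replicate 3, with PLT2 at 10.28, and both hold PLT5 replicate 3, with PLT2 at 6.07, while the other 16 arrays lay between 3.67 and 4.38. PLT1 was not called (0.09 ± 0.10, adjusted p = 0.519).

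A pair of arrays stood apart. PLT3 was at 6.49, 4.63 and 4.39 in PLT7 replicates 1, 2 and 3 and at 4.59, 4.73, 4.76 and 4.75 in mock, and it was not called (0.46 ± 0.40, adjusted p = 0.402). The difference was -0.20 without PLT7 replicate 1, 0.73 without replicate 2 and 0.85 without replicate 3. The PLT3 signal of PLT7 replicate 1 thus lay above every other array of this comparison, although the labels give that line no PLT3 fusion. Mock replicate 4 differed from the other mock arrays in several genes of the daily clock, which are described below. In all, 9429 probe sets were called without leaving out an array, 7979 without PLT7 replicate 1, 9361 without mock replicate 4 and 7892 with both left out.

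A large part of the transcriptome differed between the PLT7 and mock groups. Of 21429 probe sets, 4974 rose and 4455 fell, which is 44.0% in all, 23.2% higher and 20.8% lower. A rise of at least 2-fold was called for 782 probe sets (3.65%) and a fall of that size for 1224 (5.71%). The count for each gene group below is to be read against these shares. The median change over all probe sets was 0.02.

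Among genes with a symbol, groups that did not overlap and a probe set of their own, the largest rise after PLT7 itself was that of ADF9, an actin-depolymerising factor. Its levels were 9.15, 9.4 and 9.34 in PLT7 and 5.2, 4.37, 4.71 and 4.72 in mock, 23.3-fold higher (4.55 ± 0.16, adjusted p = 3.53e-08). MEE3, a MYB-related protein of the RADIALIS-like kind, was at 8.43, 8.38 and 8.62 against 4.68, 4.15, 4.18 and 4.32 and rose by 4.15 ± 0.13. The cytochrome P450 CYP81F1, listed as CYP91A2 in the gene table, was at 9.58, 9.47 and 9.28 against 5.89, 5.41, 5.8 and 5.35 and rose by 3.83 ± 0.14. In these genes every PLT7 array lay above all mock arrays, which was a condition for naming the 15 largest rises and falls and is no result. Genes of cell structure and signalling were among the others, with the small GTPase ROP9 (3.77), the myosin XIC (3.62), the LysM receptor-like kinase LYK2 (3.57), the synaptotagmin SYTC (3.05) and TRM8 (3.01). The glutathione transferase ATGSTF13 (3.51), the BTB-domain scaffold protein BT2 (3.4), the carboxypeptidase-like scpl35 (3.07), EXL3 (3.04) and the Rubisco assembly chaperone RbcX1 (2.97) rose as well.

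By the same rule the largest fall was that of BZIP61, a leucine zipper factor, at 4.61, 4.36 and 4.75 in PLT7 and 8.81, 8.68, 8.45 and 8.42 in mock (-4.02 ± 0.12, adjusted p = 1.79e-08). BEE2, a bHLH factor that promotes growth downstream of brassinosteroids, was at 4.55, 4.4 and 4.79 against 8.46, 8.51, 8.57 and 8.41 and fell by 3.91 ± 0.10. FLA9, a fasciclin-like arabinogalactan protein of the cell surface, was at 8.0, 7.42 and 7.9 against 11.6, 11.75, 11.52 and 11.62 and fell by 3.85 ± 0.13. Also among the named falls were the xylosidase BXL1 (-3.61), the wall-loosening XTH17 (-3.57), the galactosidase BGAL4 (-3.54), the wall protein PELPK1 (-3.53) and the pectin methylesterase-like ATPMEPCRD (-3.24). The aquaporin PIP2A (-3.54), the vacuolar calcium exchanger CAX1 (-3.41), the phototropism-related PKS2 (-3.25) and the P450 CYP71B7 (-3.32) fell as well.

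**Figure D1:**
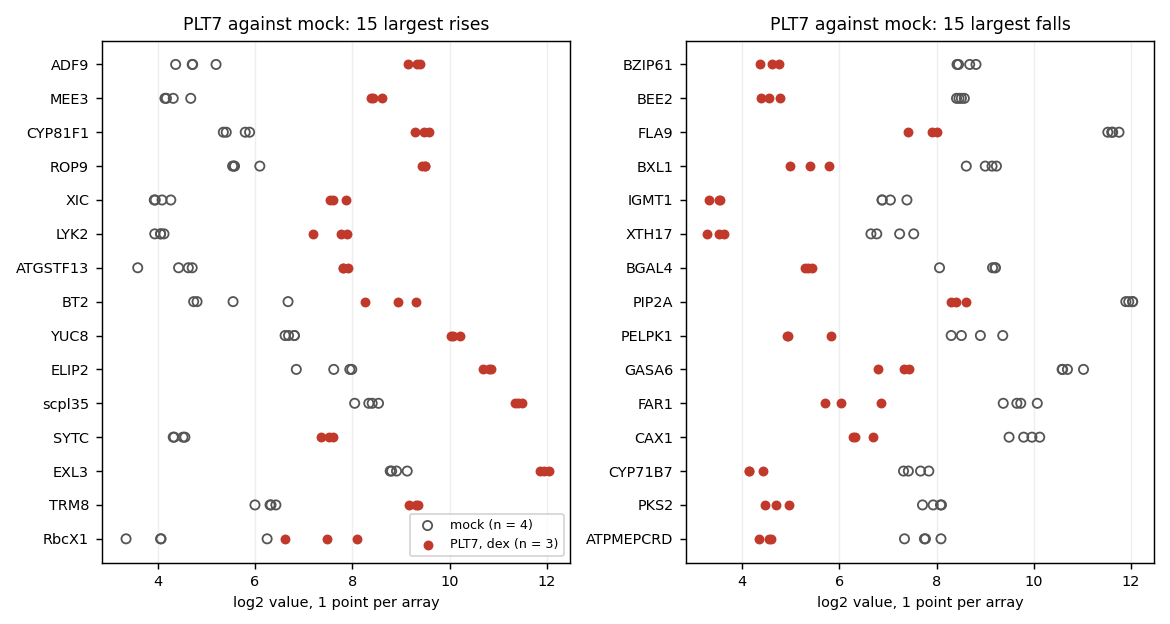
Log2 value (x axis) of the 15 genes of largest rise (left) and of largest fall (right) in PLT7 against mock, with 1 point per array, open grey for the 4 mock arrays and filled red for the 3 PLT7 arrays. In each row all red points lie on 1 side of all grey points, by the rule that chose the genes; ADF9 rises by 4.55 and BZIP61 changes by -4.02.

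Individual auxin genes moved in both directions. Auxin is made from tryptophan by TAA1 and its relatives and then by the YUCCA (YUC) monooxygenases, moves between cells through AUX1/LAX importers and PIN exporters, and acts through ARF factors that Aux/IAA proteins hold back. Of 15 measured biosynthesis genes, 4 rose and 1 fell, with a median change of 0.07. The share called was below the 44.0% of all probe sets. YUC8 was at 10.08, 10.22 and 10.02 in PLT7 and at 6.69, 6.81, 6.62 and 6.81 in mock, 10.4-fold higher (3.37 ± 0.09, adjusted p = 7.45e-09). YUC3 rose by 1.96 ± 0.21, YUC7 by 1.04 ± 0.13 and TAA1 by 0.90 ± 0.08, while YUC5 fell by 0.27 ± 0.08 (adjusted p = 0.0161, and 0.0596 or 0.0559 without PLT7 replicate 2 or 3). The remaining YUC genes were not called, for example YUC2 at -0.36 ± 0.13 (adjusted p = 0.0537, and 0.0148 or 0.0321 without mock replicate 1 or 3) and YUC6 at -0.26 ± 0.10 (adjusted p = 0.0596, and 0.0399 or 0.0179 without mock replicate 3 or PLT7 replicate 2).

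Of 16 transport genes, 3 rose and 6 fell. The importer LAX2 was at 7.98, 8.26 and 8.0 against 5.9, 5.54, 5.86 and 5.99 and rose by 2.26 ± 0.12. Its relatives went the other way: LAX3 fell by 1.1 ± 0.12, AUX1 by 1.05 ± 0.09 and LAX1 by 1.0 ± 0.09. Of 8 PIN exporters measured, 2 rose and 2 fell, beside 23.2% and 20.8% of all probe sets, and their highest change was 1.36. Among them PIN4 rose by 1.18 ± 0.09, PIN7 fell by 0.68 ± 0.11, and PIN3 was not called (-0.02 ± 0.07, adjusted p = 0.825). Of 25 response genes, 9 rose and 8 fell, with a median of -0.08. IAA30, an Aux/IAA protein without the degradation motif of its relatives, was at 7.26, 7.61 and 7.15 against 4.97, 4.66, 4.8 and 4.7 and rose by 2.56 ± 0.12. MONOPTEROS (ARF5), which starts embryonic root formation, rose by 1.5 ± 0.10 and IAA1 by 1.38 ± 0.12. GH3.5 and GH3.6, which couple auxin to amino acids, fell by 1.38 ± 0.11 and 1.21 ± 0.08. Early auxin-induced IAA5 was not called (-0.22 ± 0.09, adjusted p = 0.0742, and 0.0468 without mock replicate 3).

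Some regulators of the root tip and of lateral roots rose, in shares to be read beside the 23.2% of all probe sets that did. Of 16 root niche genes, 6 rose and 3 fell, with a median of 0.09. RGF3 encodes a root meristem growth factor, a secreted peptide that sustains PLT protein in the root tip. It was at 6.34, 6.1 and 6.38 in PLT7 and 3.58, 3.93, 3.15 and 3.56 in mock and rose by 2.72 ± 0.16 (adjusted p = 4.88e-07). TPST, the sulfotransferase that activates such peptides, rose by 1.2 ± 0.09. SHR and SCR, which specify ground tissue, rose by 0.98 ± 0.10 and 0.64 ± 0.09, and the retinoblastoma protein RBR1, which binds SCR, by 0.64 ± 0.08. MGP, a target of SHR, fell by 0.50 ± 0.10. Of 12 genes of lateral root initiation, 3 rose and 1 fell, a share near that background. The cytokinin response factors CRF3 and CRF2 rose by 2.72 ± 0.12 and 1.52 ± 0.13, with CRF3 at 7.31, 7.42 and 7.12 against 4.8, 4.47, 4.65 and 4.35. LBD16, LBD29 and PUCHI, which act early in the primordium, were not called, with 0.17, 0.17 and 0.15 (adjusted p = 0.216, 0.125 and 0.295).

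Growth, shoot and embryo regulators moved in both directions, and the share called in the shoot and the embryo list was below the 44.0% of all probe sets. Of 10 growth-regulating factors and their coactivators 4 rose and 1 fell. GIF1 (ANGUSTIFOLIA3), a coactivator of leaf cell division, was at 7.71, 7.6 and 7.51 against 5.2, 5.76, 5.48 and 5.48 and rose by 2.13 ± 0.12, and GRF2 rose by 0.91 ± 0.10. Of 21 shoot meristem and boundary genes 2 rose and 5 fell. The boundary factor CUC2 rose by 0.97 ± 0.13, whereas the receptor CLV1 fell by 1.54 ± 0.14, the leaf factor AS1 by 1.41 ± 0.10 and the homeobox gene KNAT1 by 0.91 ± 0.14. CUC1 and ATH1 were not called (0.11 and -0.22, adjusted p = 0.34 and 0.435). Of 21 embryo and seed storage genes 3 rose and 2 fell. The class III homeobox gene PHB rose by 1.47 ± 0.09, and the late embryogenesis gene EM6 and the cruciferin CRU3 fell by 1.08 ± 0.25 and 0.98 ± 0.33. The call of CRU3 (adjusted p = 0.0347) ended without mock replicate 1 or 4 or PLT7 replicate 1 or 3, at adjusted p of 0.0769, 0.0726, 0.106 and 0.137.

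Genes of DNA replication and of ribosome biogenesis rose together, and part of the mitotic genes rose. Of 27 genes of DNA replication and entry into S phase, 25 rose and 1 fell, beside 23.2% and 20.8% of all probe sets. Their median change was 0.77, and 10 rose at least 2-fold. RNR2A, a subunit of the ribonucleotide reductase that makes deoxynucleotides, was at 9.52, 9.56 and 9.52 against 7.37, 7.51, 7.65 and 7.34 and rose by 2.07 ± 0.09. E2FA, a factor that switches on S phase genes, was at 6.36, 6.67 and 6.49 against 4.66, 4.75, 4.99 and 4.68 and rose by 1.73 ± 0.11. The groups did not overlap in either gene, as was so with PLT7 higher in 25.7% of all probe sets. The origin subunits ORC2 and ORC6 rose by 1.22 ± 0.11 and 1.12 ± 0.08, the helicase subunit MCM3 by 1.17 ± 0.11, the polymerase subunit POLA2 by 1.18 ± 0.13 and the sliding clamp PCNA1 by 1.05 ± 0.14. The member that fell was the cyclin CYCD3;3 (-0.39), picked after its value was seen, and its adjusted p of 0.017 became 0.0509 or 0.067 without PLT7 replicate 2 or 3. Of 17 mitotic genes 10 rose and the others were not called, with a median of 0.41. The cyclins CYCB1;3 and CYCB1;1 rose by 1.18 ± 0.10 and 0.72 ± 0.11, the spindle protein PLE by 0.75 ± 0.11 and the kinesin POK1 by 0.72 ± 0.11. KNOLLE, the syntaxin of the cell plate, was not called (0.29 ± 0.11, adjusted p = 0.0562, and 0.04 or 0.0309 without mock replicate 1 or 4). Of 19 genes of ribosome biogenesis 18 rose and the other was not called, with a median of 0.78. The nucleolin NUC-L2 rose by 1.3 ± 0.08, the fibrillarin FIB2 by 1.29 ± 0.09 and the histone deacetylase HDT1 by 1.25 ± 0.10. In whole seedlings, a change in the number of cells of a type and a change in RNA per cell cannot be told apart, here and in every group below.

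**Figure D2:**
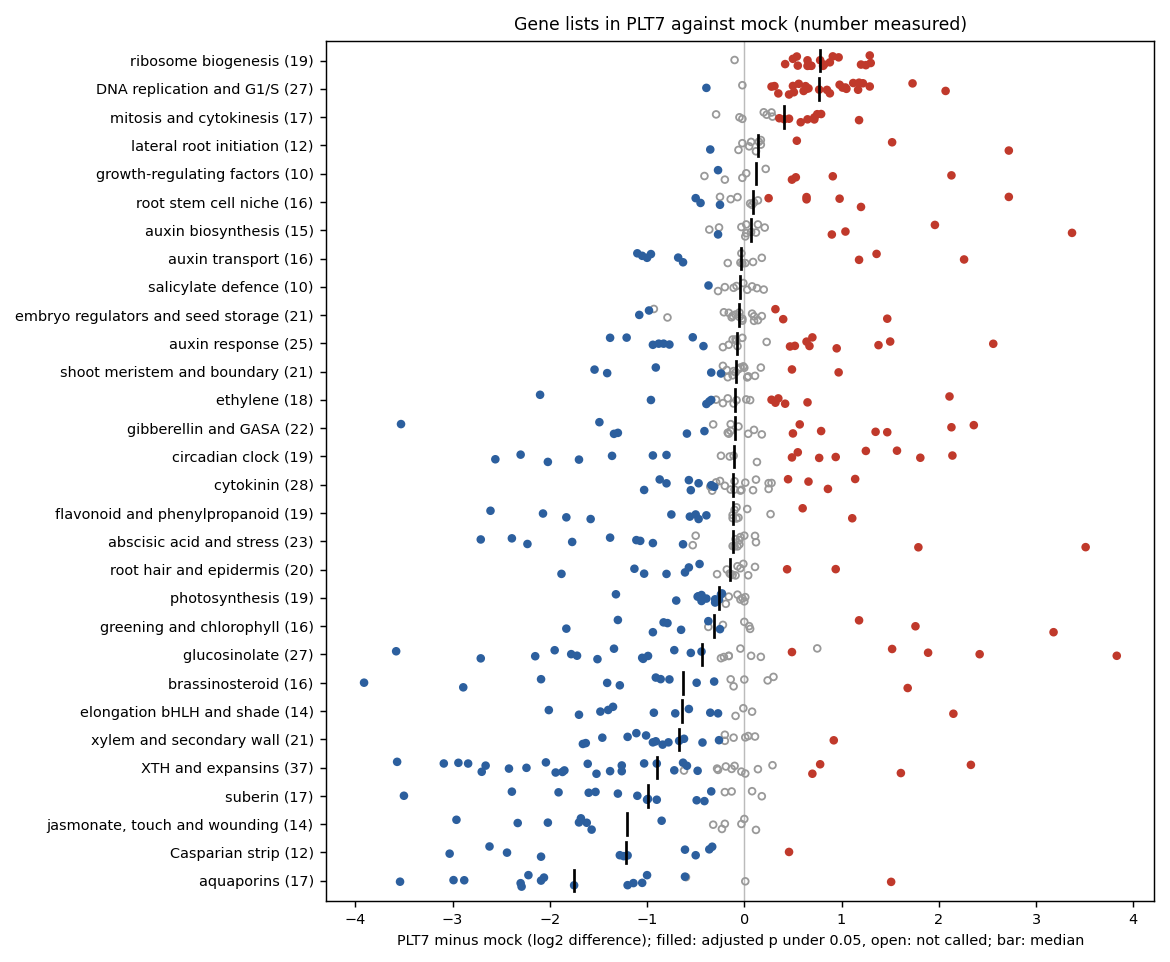
Change in PLT7 against mock (x axis, log2 difference) for each measured member of 30 gene lists, ordered by the list's median (black bar), with the number measured in brackets. Filled points are called, red higher and blue lower, and open points are not. Ribosome biogenesis and DNA replication lie at the top with medians of 0.78 and 0.77, and aquaporins at the bottom with -1.75.

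Genes of the endodermis and the xylem fell. Of 5 measured root markers, 2 fell, namely CASP1 and PER64 of the endodermis, which the Casparian strip list holds too, and the median was -0.60. The others, BGLU23, TIP2;3 and NRT2.1, were not called (-0.13, -0.60 and 0.36, adjusted p = 0.209, 0.124 and 0.238), and TIP2;3 had an adjusted p of 0.015 without mock replicate 3. The endodermis seals the root with the Casparian strip, a lignin ring laid down on CASP scaffold proteins, and later with suberin lamellae. Of 12 Casparian strip genes 11 fell and 1 rose, with a median of -1.22, and 7 fell at least 2-fold. CASP1 was at 4.54, 4.63 and 5.54 in PLT7 and 8.15, 7.79, 7.61 and 8.17 in mock and fell by 3.03 ± 0.23 (adjusted p = 2.95e-06). PLT7 replicate 3 was the highest of its group and still below every mock array. The peroxidase PER64, which makes the lignin of the strip, fell by 2.62 ± 0.16, and ESB1, which places it, by 2.44 ± 0.17. The receptor SGN3, which monitors the seal, fell by 0.61 ± 0.09. The member that rose was the receptor GSO2 (0.46), chosen after its value was seen. Of 17 suberin genes 13 fell and the others were not called, with a median of -0.99. FAR1, which makes fatty alcohols of suberin, was at 6.86, 6.04 and 5.71 against 9.73, 9.65, 9.37 and 10.07 and fell by 3.5 ± 0.24. The fatty acid hydroxylase CYP86A1 was at 4.78, 5.22 and 4.58 against 7.36, 7.46, 7.4 and 6.8 and fell by 2.39 ± 0.18. All PLT7 arrays lay below the mock arrays in CYP86A1, as they did in FAR1 by the rule that chose it. The same was so in 22.5% of all probe sets. The feruloyl transferase ASFT fell by 1.91 ± 0.16, the elongases KCS2 and KCS20 by 1.53 ± 0.19 and 1.3 ± 0.09, and the regulator MYB41 was not called (-0.13 ± 0.10, adjusted p = 0.358).

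Of 21 xylem and secondary wall genes 14 fell and 1 rose, with a median of -0.67. The laccase LAC4 fell by 1.63 ± 0.19, the cellulose synthases CESA4 and CESA7 by 1.46 ± 0.12 and 1.01 ± 0.13, and the xylem protease XCP2 by 0.94 ± 0.09. ACL5, which makes the thermospermine that delays xylem death, was the member that rose (0.92). The master switch VND7 was not called (-0.20 ± 0.08, adjusted p = 0.06). Of 20 root hair and epidermis genes 7 fell and 2 rose, and the 45.0% called was near the 44.0% of all probe sets. The root hair wall protein PRP3 fell by 1.88 ± 0.15, the expansin EXPA18 by 1.13 ± 0.15 and the oxidase RHD2 by 0.80 ± 0.09. CPC, a mobile MYB protein that promotes the hair fate, rose by 0.94 ± 0.19. RSL4, which sets root hair growth, was not called (-0.15 ± 0.09, adjusted p = 0.242).

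Genes of cell expansion fell, the aquaporins with the lowest median of the 30 lists. Growing plant cells take up water through aquaporins while expansins and xyloglucan-modifying XTH enzymes loosen the wall. Of 17 aquaporins 14 fell, 13 of these at least 2-fold, and 1 rose, with a median of -1.75. PIP2A was at 8.61, 8.4 and 8.29 against 12.03, 12.03, 11.89 and 11.95 and fell by 3.54 ± 0.09. PIP2;6 of the plasma membrane fell by 2.99 ± 0.09, and TIP2;1 and TIP1;1 of the vacuole by 2.88 ± 0.11 and 2.29 ± 0.08. The aquaporin that rose was PIP2;5 (1.51), chosen after its value was seen. Of 37 XTH and expansin genes 23 fell and 4 rose, with a median of -0.90. XTH17 was at 3.29, 3.62 and 3.53 against 7.53, 6.77, 6.65 and 7.24 and fell by 3.57 ± 0.19, where PLT7 lay near the background and the fall may be larger. EXPA8 fell by 3.09 ± 0.08 and EXPA1 by 2.94 ± 0.16. XTH9 moved the other way, from 9.68, 9.63, 9.9 and 9.85 in mock to 12.12, 12.14 and 12.01 in PLT7, and rose by 2.33 ± 0.09.

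Growth-promoting bHLH factors fell, and gibberellin genes moved both ways. Of 16 brassinosteroid genes 10 fell and 1 rose. Beside BEE2, its relatives BEE1 and BEE3 fell by 2.89 ± 0.11 and 2.09 ± 0.12. BAS1, which inactivates brassinosteroids, rose by 1.68 ± 0.09, while SOB7, which does so too, fell by 1.41 ± 0.10. The synthesis genes DWF4 and DET2 were not called, at 0.30 (adjusted p = 0.0657, and 0.00215 without mock replicate 3) and 0.24 (adjusted p = 0.108, and 0.0142 without mock replicate 4). Of 14 bHLH and shade genes 10 fell and 1 rose. The bHLH factor HBI1 fell by 2.01 ± 0.09 and the light-sensitive factors PIF3, PIF4 and PIF5 by 1.48 ± 0.12, 1.4 ± 0.12 and 1.35 ± 0.09, whereas the homeobox gene HAT2 rose by 2.15 ± 0.07. Of 22 gibberellin genes 7 rose and 6 fell. GASA6, a gibberellin-regulated peptide, was at 7.34, 6.79 and 7.44 against 10.69, 10.58, 10.59 and 11.02 and fell by 3.53 ± 0.16, while GASA1 rose by 2.36 ± 0.14. Among enzymes the oxidases GA3 and GA20OX2 of the synthesis route rose by 2.13 ± 0.08 and 1.35 ± 0.11, and GA3OX1, which makes the active hormone, fell by 1.49 ± 0.11.

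Photosynthesis genes fell by small amounts. Of 19 members 12 fell, 1 of these at least 2-fold, and the others were not called, with a median of -0.26. The plastocyanin PETE1 fell by 1.32 ± 0.10, the carbonic anhydrase CA1 by 0.70 ± 0.10 and the kinase PRK by 0.48 ± 0.09, and LHCB6 was not called (-0.19 ± 0.08, adjusted p = 0.0678, and 0.0369 without mock replicate 4). Of 16 greening genes 3 rose and 8 fell. The early light-induced protein ELIP2 was at 10.81, 10.85 and 10.68 against 7.62, 7.95, 7.99 and 6.85 and rose by 3.18 ± 0.23. The protochlorophyllide reductases PORA and PORB rose by 1.76 ± 0.22 and 1.18 ± 0.18, and the chloroplast factors GLK1 and GLK2 fell by 1.83 ± 0.14 and 1.3 ± 0.09.

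Clock genes differed between the groups, and in some of them mock replicate 4 lay nearest to PLT7. The plant clock runs from the morning factors CCA1 and LHY through the PRR proteins to the evening complex. Of 19 clock genes 8 rose and 7 fell. CCA1 was at 4.72, 4.53 and 4.15 in PLT7 and at 7.37, 7.62, 7.22 and 5.88 in mock replicates 1 to 4. Mock replicate 4 was the lowest mock array and still above the PLT7 arrays. CCA1 fell by 2.56 ± 0.35 (adjusted p = 0.000168). LHY was at 5.26, 5.29 and 5.27 against 6.55, 7.57, 7.13 and 5.26, where mock replicate 4 lay at the level of the PLT7 arrays, and fell by 1.36 ± 0.42 (adjusted p = 0.0239). That call ended without mock replicate 2 or 3 (adjusted p = 0.0551 and 0.052) and without any 1 of the PLT7 arrays (0.0659 to 0.0682). PRR5, which acts later in the day, was at 6.54, 7.2 and 7.29 against 5.01, 4.24, 4.5 and 5.74 and rose by 2.14 ± 0.32. The RNA-binding protein GRP7, a clock output, was at 12.85, 13.21 and 13.1 against 11.28, 10.89, 11.01 and 11.8 and rose by 1.81 ± 0.19. CHE and COL2 fell by 2.3 ± 0.09 and 2.02 ± 0.36, LNK2 fell by 1.7 ± 0.19 and PRR3 rose by 1.57 ± 0.34. Without mock replicate 4 the changes were -2.94 for CCA1, -1.81 for LHY, 2.43 for PRR5 and 1.99 for GRP7. The protocol states that genotypes were induced 5 min apart and harvested within a short window. The part of the clock in the other changes was not tested.

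**Figure D3:**
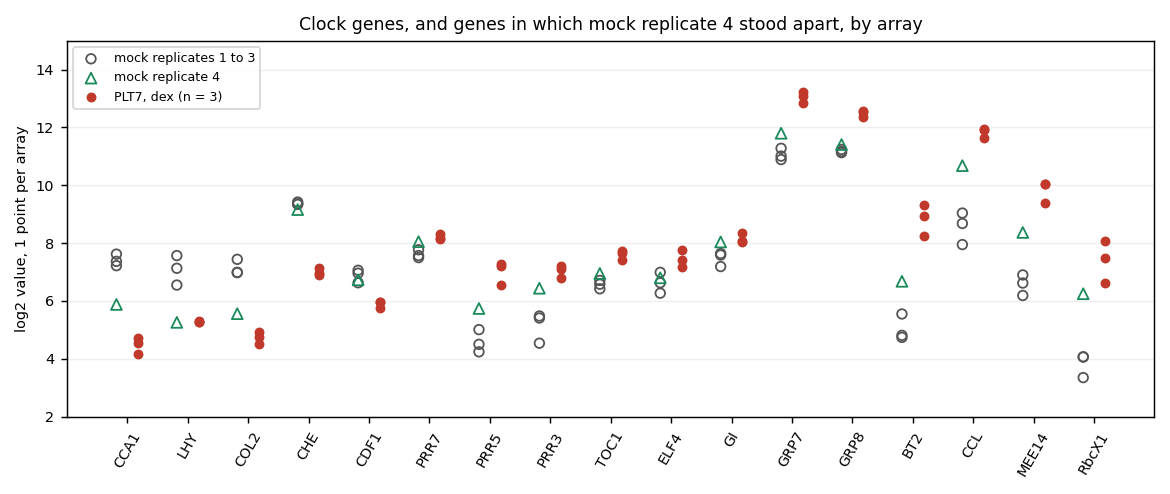
Log2 value (y axis) of 13 clock genes and of BT2, CCL, MEE14 and RbcX1, with 1 point per array; open circles are mock replicates 1 to 3, green triangles mock replicate 4 and red points the 3 PLT7 arrays. BT2, CCL, MEE14 and RbcX1 were picked for it because their mock replicate 4 was seen to differ, and CDF1, PRR7, TOC1, ELF4, GI and GRP8 were added after their values were seen. In CCA1, PRR5, BT2 and CCL the triangle lies between the other mock arrays and PLT7.

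Other hormone and stress genes gave mixed counts. Of 28 cytokinin genes 4 rose and 8 fell, and the 42.9% called was near the 44.0% of all probe sets. The response regulators ARR6 and ARR7 fell by 1.03 ± 0.22 and 0.87 ± 0.12 and the synthesis gene IPT3 by 0.80 ± 0.11, while LOG8, which activates the hormone, rose by 1.14 ± 0.10. Of 18 ethylene genes 6 rose and 5 fell. The ethylene-forming oxidases moved apart: ACO1 was at 7.81, 7.76 and 7.76 against 5.76, 5.71, 5.87 and 5.34 and rose by 2.11 ± 0.12, and ACO4 was at 9.71, 9.43 and 9.52 against 11.62, 11.58, 11.62 and 11.78 and fell by 2.1 ± 0.09. Of 14 jasmonate, touch and wounding genes 8 fell and the others were not called, with a median of -1.21. The touch gene TCH4, an XTH enzyme, was at 5.36, 5.8 and 5.81 against 8.92, 8.64, 8.37 and 8.54 and fell by 2.96 ± 0.15. The calmodulin-like TCH3 and TCH2 fell by 1.7 ± 0.11 and 1.57 ± 0.12, and the jasmonate synthesis genes AOS and LOX2 by 2.02 ± 0.10 and 1.68 ± 0.50. The adjusted p of LOX2 was 0.0195, and 0.0697 or 0.0556 without PLT7 replicate 2 or 3. MYC2, the jasmonate master factor, was not called (-0.32 ± 0.14, adjusted p = 0.0965). Of 23 abscisic acid and stress genes 9 fell and 2 rose, and the 47.8% called was near the 44.0% of all probe sets. The small heat shock protein HSP17.6A fell by 2.71 ± 0.40, the hemoglobin HB1 by 2.23 ± 0.20 and RAB18 by 1.77 ± 0.30, and the phosphatase ABI1, a brake on abscisic acid signalling, rose by 1.79 ± 0.09. Of 10 salicylate genes 1 fell, WRKY70 by 0.37 ± 0.11, and the others were not called. The adjusted p of WRKY70 was 0.0182, and 0.0588 or 0.0922 without PLT7 replicate 1 or 3.

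Genes of glucosinolate and phenolic synthesis, which serve defence, moved in both directions. Glucosinolates are made from methionine (aliphatic) or tryptophan (indolic). Of 27 genes 14 fell and 5 rose, with a median of -0.44. The aliphatic regulator MYB28 fell by 1.95 ± 0.13, the chain-elongating MAM1 by 1.78 ± 0.12 and the side chain enzyme AOP2 by 2.71 ± 0.16. On the indolic side the regulator MYB34 rose by 1.89 ± 0.08, and CYP83B1 was at 11.38, 11.66 and 11.57 against 9.14, 9.13, 8.99 and 9.17 and rose by 2.42 ± 0.09. CYP81F1, which hydroxylates indole glucosinolates, rose as given above. The methyltransferases IGMT1 and IGMT2 that act after it fell by 3.58 ± 0.13 and 2.15 ± 0.13, with IGMT1 at 3.32, 3.53 and 3.55 against 7.05, 6.88, 6.88 and 7.39. Both were near the background in PLT7, and their falls may be larger. Of 19 flavonoid and phenylpropanoid genes 9 fell and 2 rose. The entry enzymes PAL1 and PAL2 fell by 2.61 ± 0.13 and 1.83 ± 0.16, 4CL1 by 1.58 ± 0.08 and the flavanone hydroxylase F3H by 2.07 ± 0.24, and 4CL3 rose by 1.11 ± 0.14.

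The PLT7 and PLT4 lines were compared directly, since both had dex and only PLT4 had its own mock. In a fit of 10 arrays, 1614 probe sets were higher and 1810 lower in PLT7 than in PLT4, 16.0% of all, and 509 (2.38%) differed at least 2-fold. In the same fit PLT4 against its mock called 8047 (37.6%). Both comparisons with mock use the same 4 mock arrays, so their values are set side by side and their likeness is not a result. Of 21429 probe sets, only 102 were called in opposite directions against mock with the difference between PLT7 and PLT4 also called. Of these, 53 were higher and 49 lower in PLT7.

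XIC stood at 7.88, 7.61 and 7.54 in PLT7, 4.04, 4.3 and 4.25 in PLT4 and 4.27, 3.93, 4.09 and 3.95 in mock, and PLT7 was above PLT4 by 3.48 ± 0.12 (adjusted p = 4.55e-09). LYK2 was at 7.89, 7.77 and 7.2 in PLT7, at 4.46, 4.33 and 4.06 in PLT4 and at 4.13, 4.06, 3.94 and 4.06 in mock, with a difference of 3.34 ± 0.15. MEE3 differed by 3.31 ± 0.14 and SYTC by 2.42 ± 0.11. In a fit of 17 arrays the differences of XIC, LYK2, MEE3 and SYTC from mock were 3.75, 4.15, 4.79 and 2.96 in PLT1. In the same order they were 0.32, 1.47, 0.75 and 0.43 in PLT3, 0.14, 0.23, 0.84 and 0.63 in PLT4, and 0.11, 0.34, 0.74 and 0.30 in PLT5. The iron transporter IRT1 was at 6.2, 4.4 and 6.44 in PLT7 and 3.26, 3.44 and 3.4 in PLT4 and differed by 2.31 ± 0.38. PLT7 replicate 2 was the lowest of its group. BT2 differed by 2.26 ± 0.42 and ROP9 by 2.24 ± 0.18.

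Lower in PLT7 was the germin-like protein GER3, at 9.16, 9.32 and 9.66 in PLT7, 12.45, 12.62 and 12.1 in PLT4 and 12.0, 11.45, 11.99 and 12.27 in mock, by 3.01 ± 0.20 (adjusted p = 9.21e-07). ST2A, which sulfates hydroxyjasmonate, was lower by 2.79 ± 0.17, and the small heat shock proteins HSP17.6A and HSP17.4 by 2.61 ± 0.44 and 2.47 ± 0.32. CAX1 was lower by 2.42 ± 0.15 and the expansin EXPA8 by 2.38 ± 0.12. Suberin genes differed between the lines. Of 17 members 9 were lower in PLT7 than in PLT4, beside 8.45% lower over all probe sets. CYP86A1 was at 7.62, 7.19 and 7.18 in PLT4, a change of 0.07 ± 0.18 from mock (adjusted p = 0.8), and PLT7 lay below PLT4 by 2.47 ± 0.19. FAR1 was at 8.97, 8.29 and 8.76 in PLT4, and PLT7 lay below it by 2.47 ± 0.26. In the Casparian strip list 1 of 12 members was lower in PLT7 than in PLT4, near the 8.45% of all probe sets. It was ESB1 (-1.0), chosen after its value was seen, and the other members were not called between the lines. Of the DNA replication list 9 of 27 were higher, beside 7.53% higher over all probe sets, with E2FA above PLT4 by 1.12 ± 0.13 and RNR2A by 0.93 ± 0.09. Of the ribosome biogenesis list 3 of 19 were lower, beside 8.45%.

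**Figure D4:**
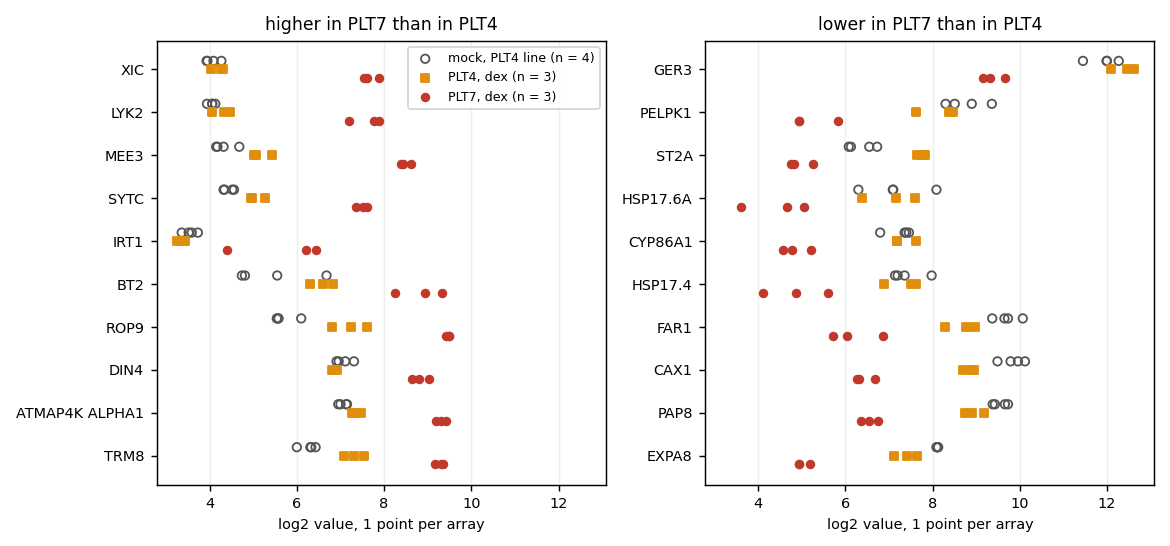
Log2 value (x axis) of the 10 genes most above (left) and most below (right) PLT4 in PLT7, with 1 point per array; grey circles are the 4 mock arrays, orange squares the 3 PLT4 arrays with dex and red points the 3 PLT7 arrays. Red and orange points do not overlap in any row, by the rule that chose the genes; XIC differs by 3.48 and GER3 by -3.01.

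**Figure D5:**
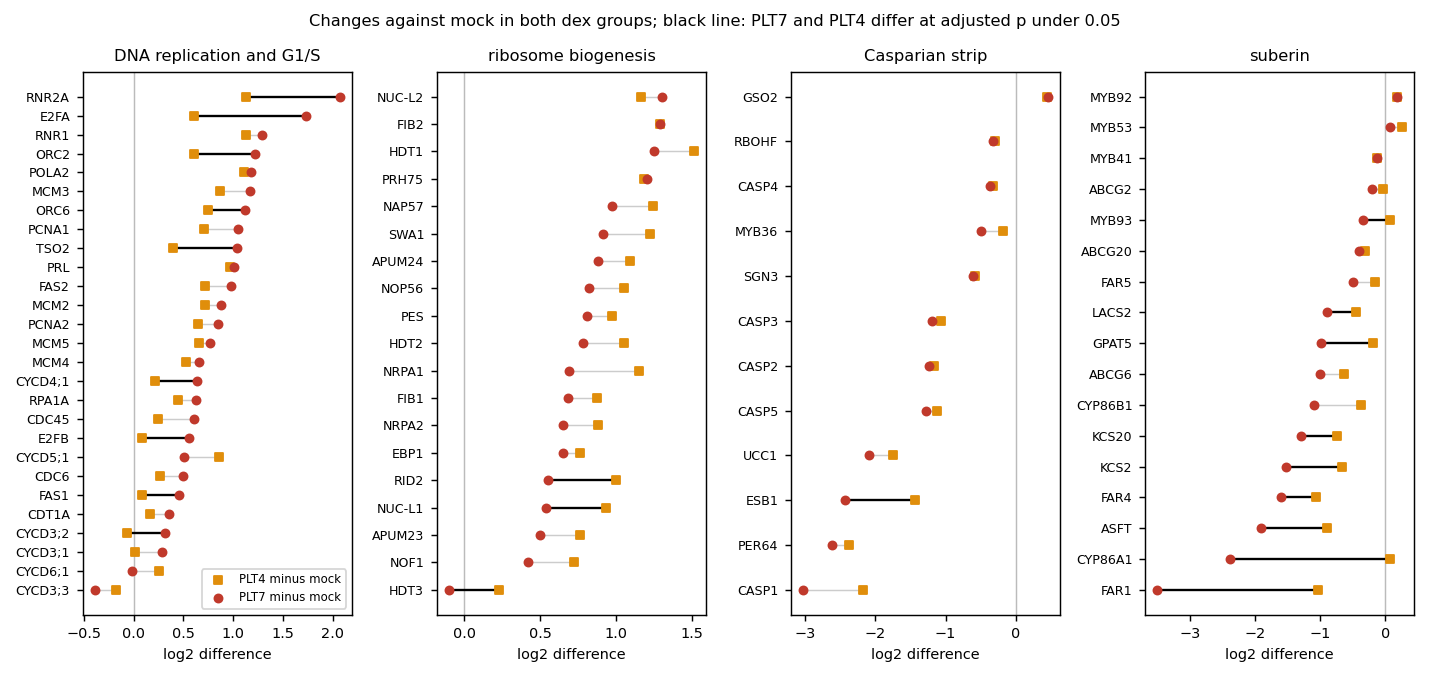
Change against mock (x axis, log2 difference) of each measured member of 4 gene lists in PLT7 (red circles) and PLT4 (orange squares), joined by a black line where PLT7 and PLT4 differ at an adjusted p under 0.05 and by a grey line otherwise. Black lines join 9 of 17 suberin genes and 1 of 12 Casparian strip genes, and 16.0% of all probe sets differ so.

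Against the mean of the PLT1, PLT3, PLT4 and PLT5 dex groups, 1897 probe sets were higher and 2006 lower in PLT7, 18.2% of all, and 215 (1.00%) differed at least 2-fold. This fit had 17 arrays, since the library labelled PLT1 replicate 3 lacked the PLT1 signal (at 3.5), had PLT2 at 10.28 and was left out. PLT5 replicate 3, with PLT2 at 6.07 against 4.06 and 3.95 in its group, was kept, and 3731 probe sets were called without it. BT2 was above the mean of the other dex groups by 2.6 ± 0.32 (adjusted p = 1.39e-05), and the growth factor peptide RGF9 by 2.07 ± 0.20. RGF9 was at 7.49, 8.24 and 8.47 in PLT7 and 7.29, 7.65, 7.73 and 7.15 in mock, with overlapping groups. Its rise against mock (0.61 ± 0.22, adjusted p = 0.0457) lost its call when mock replicate 1, 2 or 4 (adjusted p = 0.105, 0.0531 and 0.0962) or PLT7 replicate 2 or 3 (0.157 and 0.198) was left out. CCL, MEE14 and the thioredoxin WCRKC1 were higher by 1.89 ± 0.34, 1.76 ± 0.29 and 1.29 ± 0.29, and all 3 were highest among the mock arrays in mock replicate 4. The squalene epoxidase SQE2 was higher by 1.38 ± 0.10 and the metallothionein MT2A by 1.37 ± 0.11. ICL and MLS, the enzymes of the glyoxylate cycle that turns seed oil into sugar, were lower by 2.03 ± 0.12 and 1.35 ± 0.10. ICL was at 9.45, 9.23 and 8.94 in PLT7 against 11.12, 11.03, 11.05 and 10.83 in mock, and MLS at 10.09, 10.33 and 10.28 against 10.38, 9.91, 10.36 and 10.52, where the groups overlapped. XTH19 was lower by 1.71 ± 0.15, TCH4 by 1.34 ± 0.11, the calmodulin-like MSS3 by 1.41 ± 0.10 and IGMT1 by 1.45 ± 0.14. Several lists that fell against mock were also lower than in the other dex groups, beside 9.36% of all probe sets. Lower were 7 of 14 jasmonate and touch genes and 11 of 27 glucosinolate genes, and 0 and 2 were higher. Likewise 9 of 17 aquaporins, 14 of 37 XTH and expansin genes, 7 of 16 brassinosteroid genes and 6 of 17 suberin genes were lower. In the same order 2, 3, 1 and 0 of these were higher. The clock list went both ways, with 7 of 19 genes higher and 5 lower, beside 8.85% and 9.36% of all probe sets.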

How the data were processed

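RNA of whole seedlings was hybridised with biotin label to 1-colour arrays, and groups of the 18 samples were taken from the titles. The authors deposited log2 values, and RMA and limma 3.24.15 are named per the submitters' processing notes, with no role given. RMA equalises the distribution of arrays, so a shift common to most transcripts is lost. The medians of the deposited values still differed slightly, at 5.697 to 5.713 in the PLT7 arrays and 5.733 to 5.801 in the mock arrays. Counts after median centring are given below. Of 21494 rows, 64 control rows and the PLT4 row were not tested, the latter because mock carries that transgene. Of the 21429 probe sets, 21230 were found by locus among the genes of TAIR10.1, from which the names come, and 221 share identical values with another. No genome build is given in the sources used here, and no coordinates or sequences are printed.

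PLT7 was compared with mock by limma 3.58.1 in R 4.3.3 on the 7 arrays, with moderated two-sided tests, 1 coefficient per group and Benjamini-Hochberg adjustment at 0.05. PLT7 was compared with PLT4 on 10 arrays and with the mean of the other dex groups on 17. Members and the 34 lists (647 genes, 582 measured and named) were chosen with earlier results of these data known. Named genes are the PLT genes, the 15 largest rises and falls with a symbol, non-overlapping groups and a probe set of 1 gene (PLT7 itself left out), up to 8 called and 3 other members of a list, and the 10 largest differences in each direction between dex groups. On simulated data of PLT7 against mock, 100% of changes of 1 log2 unit and 61% of changes of 0.5 were recovered, and 6.94% of calls were false. Only 100 probe sets of each size were changed there, whereas 44.0% of all were called in the data. These shares may therefore not hold for the data. P-values set a difference against the spread between arrays of the same group, and do not cover variation between lines or insertion events. Same-numbered PLT7 and mock arrays deviated with correlations of -0.056, 0.025 and 0.031, and arrays of unlike number with -0.063 to 0.043. These values show no sign of pairing by number and cannot exclude it. Alternatives were arrays left out, other groups in the fit, median centring, quantile normalization, weights per array, a robust variance with a trend, a 2-fold minimum, bright probe sets only, probe sets of 1 gene and a block for the replicate number; leaving out mock replicate 4 with PLT7 replicate 1, and PLT5 replicate 3, was added after the data were seen.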

Additional observations from a re-analysis of the deposited data

Results flagged for a closer look

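In the mock group of 4 arrays, 1 array lay apart from the other mock arrays for 9 of 192 genes named here, with a gap to the nearest array, relative to the group's range, above the critical value of Dixon's test. Chance gives such a gap in about 1 in 20 groups. Mock replicate 1 was apart with PLT3 at 4.59, YUC5 at 4.68, LAX1 at 7.22 and IAA1 at 6.26. Mock replicate 3 was apart with BGAL4 at 8.06 (9.15 to 9.21 in the others), LAX3 at 8.02 and DWF4 at 6.5. Mock replicate 4 was apart with ROP9 at 6.1 (5.54 to 5.58 in the others) and CYP86A1 at 6.8 (7.36 to 7.46). Without the array that lay apart, the change was -3.82 for BGAL4, 3.9 for ROP9 and -2.55 for CYP86A1. PLT5 changed in opposite directions against mock, by -0.49 in PLT7 and 0.49 in PLT4, and the test of the difference gave -0.98 ± 0.15 (limma, adjusted p = 0.000437).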

How the results depend on the processing

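The count of called probe sets in PLT7 against mock was 7979 to 9458 with 1 array left out (4201 to 4983 higher and 3772 to 4475 lower), and 6940 to 10188 over the alternatives other than a minimum fold, all within 1.5 times of 9429. The 6940 were among only 10715 brighter probe sets tested, a larger share than the 44.0% called of 21429. A 2-fold minimum gave 2006 probe sets, 782 higher and 1224 lower, by its construction. Median centring, which moves the median of all probe sets, gave 5721 higher and 3955 lower. PLT7 against PLT4 gave 2497 to 2785 with 1 array left out and 2474 with all 18 arrays, against 3424. PLT7 against the mean of the other dex groups gave 2709 to 2983 without 1 PLT7 array and 2869 with all 18 arrays, against 3903. With the replicate number as a block the 3 counts were 9139, 3798 and 4045. Whether the numbers pair these samples is not known. Without mock replicate 4 and PLT7 replicate 1, an alternative chosen after seeing the data, 7892 were called. Median centring moved the median of all probe sets from 0.02 to 0.07 and turned the medians of the auxin transport (-0.03 to 0.02), salicylate (-0.04 to 0.01), embryo (-0.05 to 0.00) and flower (-0.02 to 0.03) lists; no other list median changed sign under it or under quantile normalization. No called change of a named gene reversed. Calls that ended or began when 1 array was left out are given beside the genes. Other settings ended the calls of PLT2, YUC5, CRU3, LHY, LOX2, WRKY70 and RGF9 and began those of YUC2, YUC6, IAA5, KNOLLE, VND7, DWF4, DET2, LHCB6, MYC2 and TIP2;3, and the cause was not tested. Levels near the background limit what can be said of rare transcripts.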

Other observations

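Further gene families at the cell surface and in signalling were taken by the start of their symbols, after their values had been seen, and get no test as families. Of 17 fasciclin-like arabinogalactan proteins (FLA), 11 fell and 0 rose in PLT7 against mock, with a median change of -1.11, beside 20.8% lower and 23.2% higher over all probe sets. Of 28 other arabinogalactan proteins (AGP), 20 fell and 1 rose, with a median of -0.96. Of 6 root meristem growth factor peptides, 3 rose and 2 fell, beside 23.2% and 20.8% of all probe sets. The rises include RGF9 (0.61), whose groups overlapped and whose call ended without any 1 of several arrays, as given above. RGF8 was at 6.61, 6.37 and 6.62 in PLT7 and 3.91, 4.16, 4.06 and 4.1 in mock (2.47 ± 0.09), and RGF6 at 5.9, 5.76 and 5.99 and 8.35, 8.58, 8.19 and 8.4 (-2.5 ± 0.10). Of 21 IQD proteins, which bind calmodulin, 5 rose and 7 fell, with a median of -0.08. The share that rose was near the 23.2% of all probe sets. The largest rises were IQD6 at 2.81 ± 0.08 and IQD7 at 2.34 ± 0.14, and the lowest change of the family was -1.22.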
